A study of Caenorhabditis elegans with 12 samples.

Results

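Messenger RNA of whole *C. elegans* hermaphrodites on day 1 of adulthood was compared between *daf-2(e1370)* mutants and control animals. These were 6 of the 12 samples of the series, 3 samples per group, taken by their labels. The mutants carried *eri-1(mg366)* and *daf-2(e1370)* and are labelled as receiving control RNAi. The controls, called WT here, carried *eri-1(mg366)* alone, with no RNAi in their label. The *eri-1* allele, which raises the sensitivity to RNA interference, was therefore shared by both groups. By the methods of the study, animals grew at 15 °C until late L4 and were then moved to 20 °C and 50 µM FUDR, which prevents progeny. At least 80 worms were collected per sample. The growth protocol assigns *E. coli* HT115 to RNAi experiments and *E. coli* OP-50 to other cultures, so the genotype and the food bacteria cannot be told apart. A pair of *glp-4(bn2)* samples of day 1 entered only as a reference for RNA that depends on germ cells, since these animals make few or no germ cells at the restrictive temperature. The labels and the methods give them different larval temperatures.

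*daf-2* encodes the receptor of insulin and insulin-like growth factor signalling in the worm. The active receptor works through the kinases PDK-1, AKT-1 and AKT-2 to keep the transcription factor DAF-16/FOXO in the cytoplasm. When signalling is reduced, DAF-16 enters the nucleus, and the animals live longer, resist stress, store fat and, as larvae, tend to form dauers. Known DAF-16 targets act in antioxidant defence, heat shock, metal binding and metabolism.

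Levels are given in CPM, counts per 1000000 counts of the sample after TMM scaling, which corrects for differences in RNA composition. TPM values, which also account for transcript length, were used to compare levels between genes. The 6 samples held between 13750913 and 22484551 counts, so that 3 counts corresponded to between 0.133 and 0.218 CPM. Within a group, Spearman's rho over genes lay between 0.985 and 0.988 for each pair of samples. Of 13528 genes that passed the filter on low counts, 48.0% were called at an adjusted p under 0.05 with edgeR, 25.5% higher and 22.5% lower in *daf-2*. For 57.5% of the genes, called or not, the groups did not overlap. Over all tested genes, the rises were larger than the falls. The median log2 fold change was 0.87 among genes called higher and -0.41 among genes called lower, and 10.6% of the genes were called with a rise of at least 2-fold but 4.15% with a fall of that size. Of the 10653 tested genes at 1 TPM or more in both *glp-4* samples of day 1, 532 were called with such a rise and 508 with such a fall. Of the 2412 under 1 TPM in both, 821 and 39 were. A further 4807 genes under 1 TPM in both did not pass the filter. A gene could pass it through the group where it was higher, so this contrast is only a description. The balance of the directions rested on the scaling. With library totals in place of TMM factors the median of all genes was 0.13 on the log2 scale, against 0.0025 with TMM, and 71.8% of the calls were upward, against 53.2% with TMM. With limma on TPM values the median was 0.12 and the share was 72.3%. The direction of changes of about this size or less therefore depended on the scaling. In RNA of whole animals, fewer cells of a type and less RNA per cell cannot be told apart. The labels do not say whether the samples of a group came from separate cultures, so the p-values measure only the spread between these samples.

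The alleles could not be checked by their counts. *e1370* is a missense change, and *daf-2* itself was at 185.6, 195 and 192 CPM in the *daf-2* samples and 158, 161 and 159.5 CPM in the WT samples (log2 fold change 0.26, SE 0.038, adjusted p = 0.000257). *eri-1* was at 26.6, 29.3 and 33.4 CPM in the *daf-2* samples and 26.7, 30.6 and 27.2 CPM in the WT samples, and the groups overlapped (log2 fold change 0.083, SE 0.096, adjusted p = 0.509). *daf-16* was slightly lower in the mutants, at 109, 106 and 101 CPM against 136, 113 and 126 CPM in the WT samples (log2 fold change -0.25, SE 0.064, adjusted p = 0.00787), but with library totals its log2 fold change of -0.12 was not called. *daf-16* was not called with limma on TPM values either. *lin-39*, the Hox gene on which the study centres, was at 6.56, 4.10 and 5.01 CPM in the *daf-2* samples and 5.32, 5.51 and 5.12 CPM in the WT samples, with overlapping groups and no called difference (log2 fold change -0.012, SE 0.18, adjusted p = 0.963).

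A set of 77 gene lists was compared by the number of called members and the median of their fold changes. The lists held 2741 genes, 2102 of them tested. Most listed superoxide dismutases and catalases, and most listed sperm genes, were higher in *daf-2*. So were most genes of the joint list of the glyoxylate cycle, gluconeogenesis and trehalose metabolism. The lists of cytosolic ribosomal proteins, the proteasome, respiration, yolk and oocytes held no gene called higher by edgeR with TMM scaling. Wherever a list had 0 members called in a direction, DESeq2 also called 0. At an unadjusted p under 0.05, edgeR then gave 0 in that direction too, except for 1 lower small heat shock protein gene and 1 higher basement membrane gene. The scaling of DESeq2 left nearly the same balance as TMM, with 51.7% against 53.2% of the calls upward. DESeq2 was therefore no separate check of the scaling. With library totals, some genes of respiration and oocytes were called higher, as given below.

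**Figure D1:**
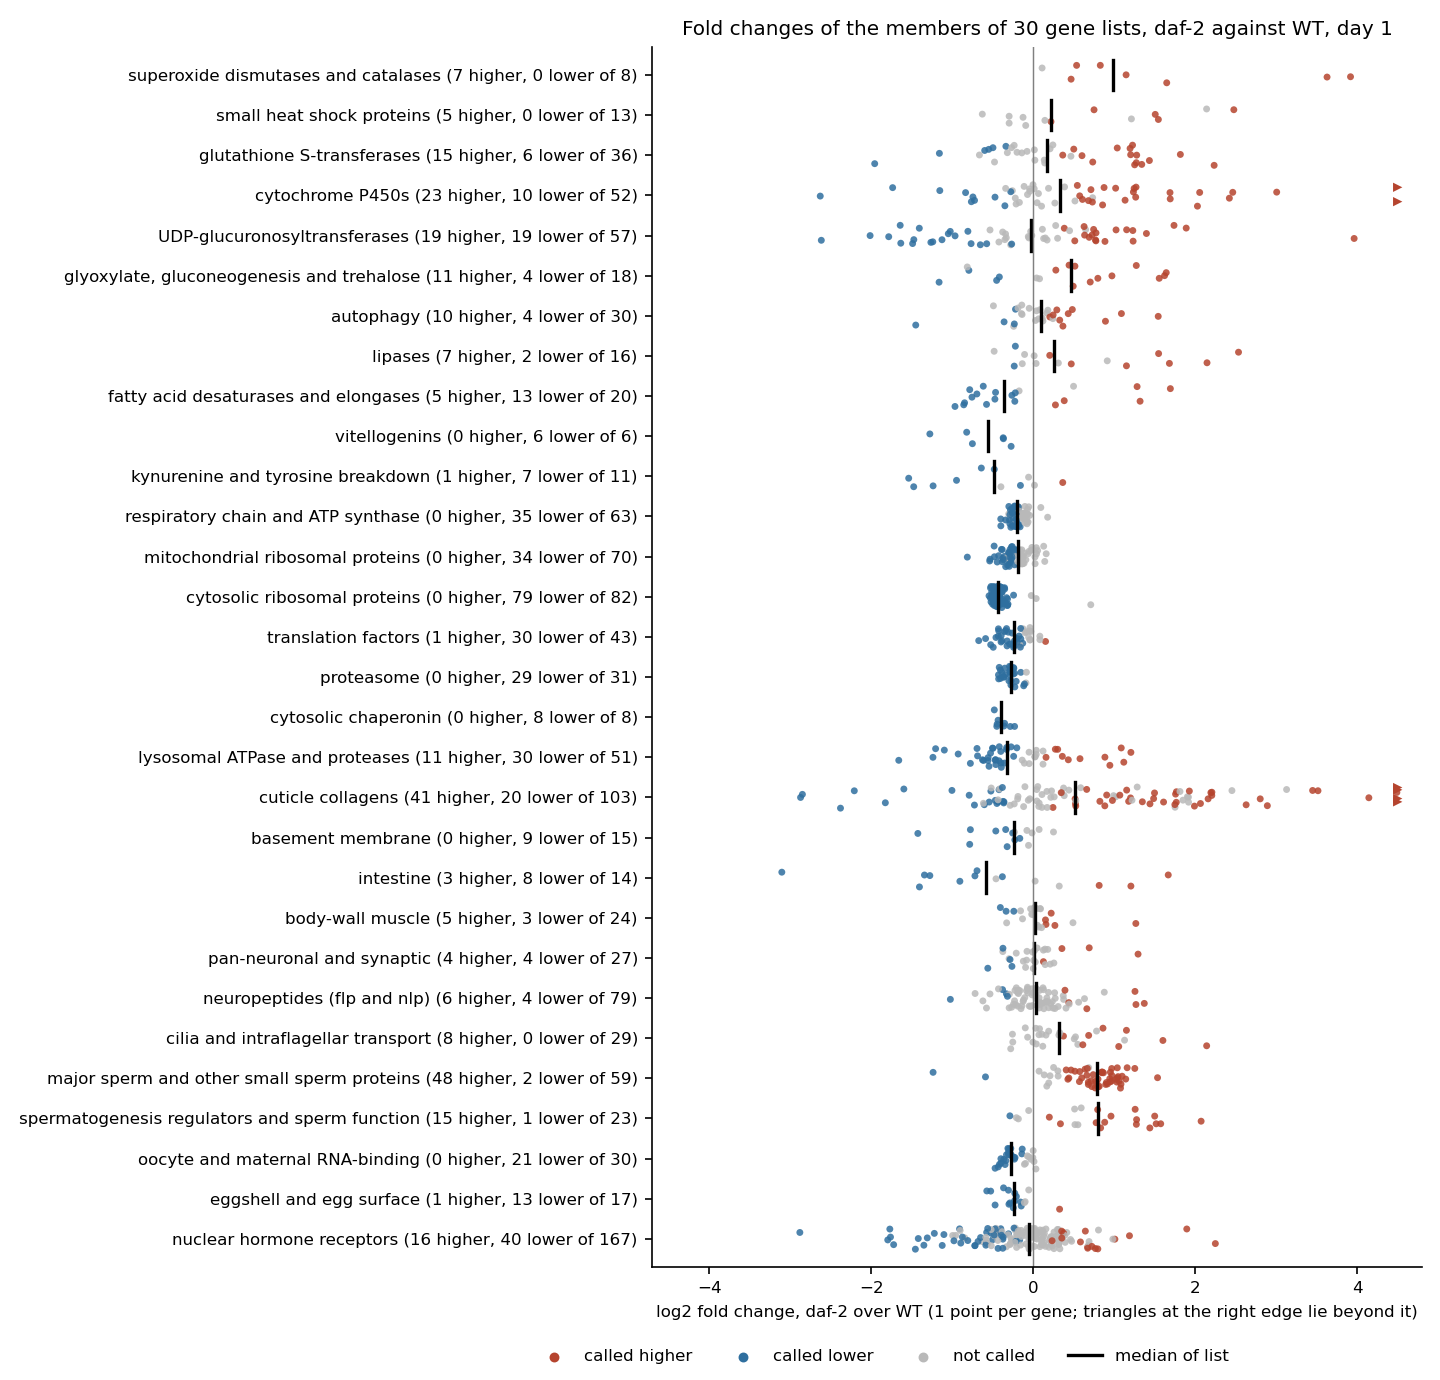
Log2 fold change of *daf-2* over WT on day 1 (x axis) for each tested member of 30 gene lists (y axis), with 1 point per gene, coloured by its call, and a bar at the median of each list. Triangles mark 6 genes beyond 4.5. The medians run from -0.58 for the intestine list to 0.99 for superoxide dismutases and catalases, and nearly all points of the cytosolic ribosomal protein list sit close together below 0.

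Superoxide dismutases and catalases, which remove superoxide and hydrogen peroxide, were mostly higher. Of these genes, 7 of 8 were called higher and 0 lower, with a median log2 fold change of 0.99. *sod-3*, a mitochondrial manganese superoxide dismutase and a classical DAF-16 target, was at 71.4, 60.7 and 54.2 CPM in the *daf-2* samples and 3.95, 3.35 and 4.85 CPM in the WT samples (log2 fold change 3.92, SE 0.14, adjusted p = 1.41e-08). Every *daf-2* sample was more than 10 times as high as every WT sample. *sod-3* overlaps *lido-1* and *C08A9.3* on the other strand, and the library kit did not mark strand. The catalases, which break down hydrogen peroxide, rose less. *ctl-3* was at 106, 90.8 and 109 CPM in the *daf-2* samples and 33.2, 30.4 and 34.1 CPM in the WT samples (log2 fold change 1.65, SE 0.077, adjusted p = 7.56e-08), and *ctl-1* at 84.9, 106 and 102 CPM against 37.4, 50.7 and 44.1 CPM in the WT samples (log2 fold change 1.15, SE 0.11, adjusted p = 9.73e-06). *sod-1*, the main cytosolic dismutase, and the mitochondrial *sod-2* rose by 0.54 and 0.47 on the log2 scale. *sod-4*, the extracellular enzyme, was at 7.31, 6.54 and 6.76 CPM in the *daf-2* samples and 6.23, 7.61 and 5.404 CPM in the WT samples, with overlapping groups (log2 fold change 0.11, SE 0.15, adjusted p = 0.587).

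In the list of peroxiredoxins and thioredoxins, which also handle peroxides, most genes were not called. Of 9 tested, 1 was higher (11.1%), 3 were lower (33.3%) and 5 were not called, against 25.5% and 22.5% of all genes called higher and lower. The median was 0.0565, or 0.18 with library totals. The lower genes were *msra-1*, *prdx-2* and *trx-3*, the last at 10, 8 and 9 counts in the *daf-2* samples and 51, 19 and 28 in the WT samples. *msra-1*, a methionine sulfoxide reductase that repairs oxidised proteins, was at 17.3, 15.5 and 13.8 CPM in the *daf-2* samples and 48.96, 52.4 and 53.95 CPM in the WT samples (log2 fold change -1.74, SE 0.089, adjusted p = 1.66e-07). It was lower in every *daf-2* sample. The main cytosolic peroxiredoxin gene *prdx-2* had 658, 601 and 576 CPM against 692, 731 and 722 CPM in the WT samples (log2 fold change -0.23, SE 0.052, adjusted p = 0.00446), a small fall that was not called with library totals.

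Metal-binding genes split within each family. *mtl-1*, a metallothionein, was at 40.8, 33.7 and 28.4 CPM in the *daf-2* samples and 0.343, 0.722 and 0.326 CPM in the WT samples (log2 fold change 6.25, SE 0.24, adjusted p = 1.98e-08). Its sister gene *mtl-2*, an intestinal metallothionein, went the other way, at 5.61, 6.61 and 6.96 CPM against 15.1, 16.9 and 18.6 CPM in the WT samples (log2 fold change -1.40, SE 0.13, adjusted p = 7.76e-06). The groups did not overlap for either gene. Per length, the mean level of *mtl-1* was 187 TPM in *daf-2* and 2.32 TPM in WT, against 40.6 and 97.7 TPM for *mtl-2*, so the order of the pair was turned around. The ferritins, which store iron, differed in the same manner. *ftn-1* was at 25.6, 32.8 and 39.7 CPM in the *daf-2* samples and 1.37, 0.722 and 1.21 CPM in the WT samples (log2 fold change 4.86, SE 0.22, adjusted p = 7.56e-08). *ftn-2* had 143, 148 and 139.1 CPM against 161, 174 and 171 CPM in the WT samples (log2 fold change -0.23, SE 0.045, adjusted p = 0.0014), lower in all mutants, but with library totals and with TPM values this fall was not called. Its mean level was 324 TPM in *daf-2* and 348 TPM in WT, above the 81.9 and 2.52 TPM of *ftn-1*.

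**Figure D2:**
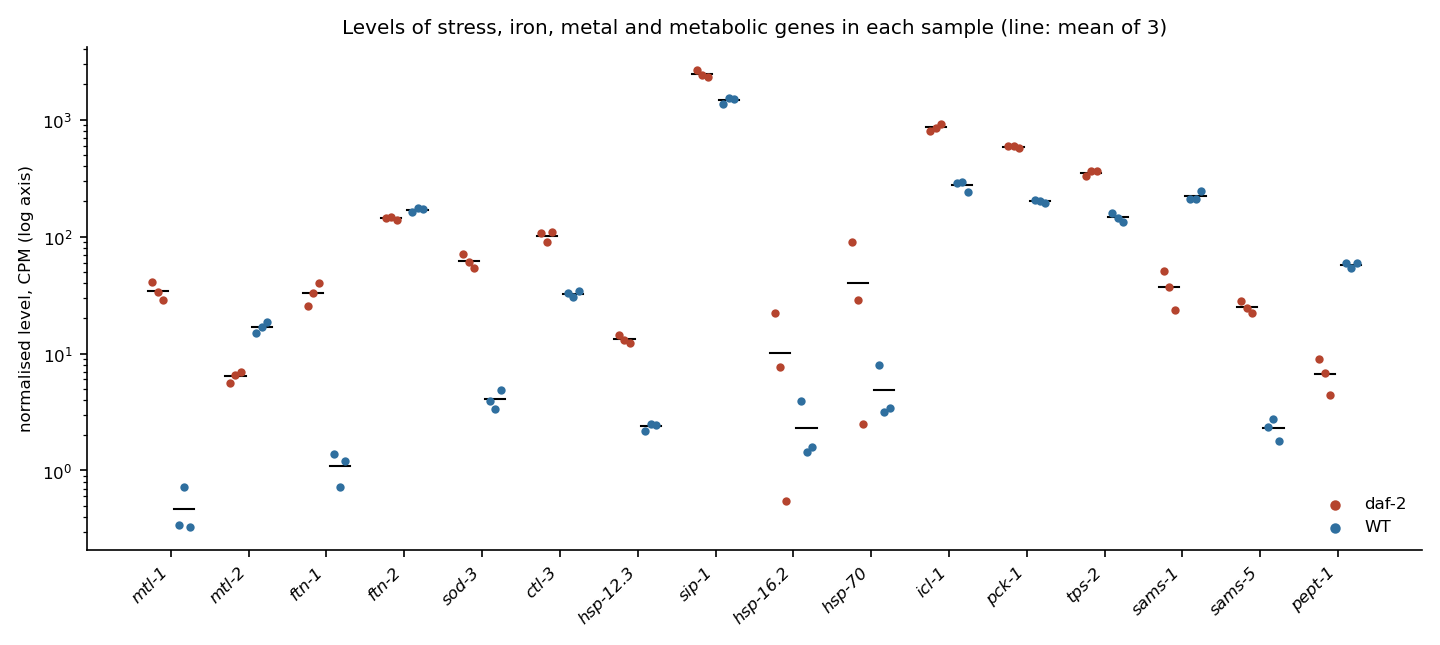
Level of 16 genes of stress defence, metal binding and metabolism in each of the 6 samples (CPM, log axis), with a line at the mean of 3 samples. *sod-3*, *mtl-1* and *ftn-1* lie apart between the groups, while *hsp-16.2* and *hsp-70* spread over more than 10-fold among the *daf-2* samples.

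Small heat shock proteins bind unfolded proteins. In the list 5 of 13 tested genes were higher and 0 lower, and the median was 0.22, or 0.13 without *daf-2* replicate 1. With DESeq2, 3 were higher. *hsp-12.3* was at 14.3, 13.1 and 12.4 CPM in the *daf-2* samples and 2.17, 2.49 and 2.47 CPM in the WT samples (log2 fold change 2.48, SE 0.14, adjusted p = 3.05e-07). *sip-1*, known from reproduction and embryos, was at 2666, 2396 and 2313 CPM in the *daf-2* samples and 1350.0, 1532 and 1499.7 CPM in the WT samples (log2 fold change 0.75, SE 0.066, adjusted p = 6.39e-06). Both were separated between the groups without overlap. The *hsp-16* genes, which respond to heat and many other stresses, behaved differently. *hsp-16.2* was at 22.03, 7.72 and 0.551 CPM in the *daf-2* samples and 3.89, 1.44 and 1.58 CPM in the WT samples (log2 fold change 2.14, SE 0.84, adjusted p = 0.0568). *hsp-16.41* had 11.4, 7.998 and 1.35 CPM against 3.32, 2.17 and 1.63 CPM in the WT samples and was called (log2 fold change 1.55, SE 0.57, adjusted p = 0.0452) although the groups overlapped. This call was lost with DESeq2 and on leaving out any 1 sample other than *daf-2* replicate 3, with log2 fold changes between 0.93 and 1.87, and it was 2.06 without that replicate. *daf-2* replicate 1 was the highest of the 6 samples for both genes, and replicate 3 the lowest. Without *daf-2* replicate 3, *hsp-16.2* was called higher, at 2.72. Several *hsp-16* genes have near-identical copies, among which reads cannot be assigned with certainty.

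The inducible Hsp70 genes followed the same samples. *hsp-70* was at 89.5, 28.7 and 2.50 CPM in the *daf-2* samples and 7.95, 3.15 and 3.401 CPM in the WT samples (log2 fold change 3.07, SE 0.89, adjusted p = 0.0149). *daf-2* replicate 3 was below every WT sample. *F44E5.4*, another inducible Hsp70 gene, was at 194, 75.6 and 13.01 CPM in the *daf-2* samples and 46.2, 21.1 and 18.5 CPM in the WT samples (log2 fold change 1.73, SE 0.69, adjusted p = 0.058). Samples of each group overlapped for both. Without *daf-2* replicate 1, the highest sample, *hsp-70* was not called, at 1.64, nor was it without WT replicate 2 or 3, at 2.86 and 2.84. With limma on TPM values *hsp-70* was not called either. *F44E5.4* was called higher without *daf-2* replicate 3, at 2.27. Some constitutive chaperone genes were lower. *hsp-1*, the cytosolic Hsc70, fell by 0.29 on the log2 scale, the mitochondrial chaperonin *hsp-60* fell by 0.64 and *hsp-110* fell by 0.36, which was not called with limma on TPM values. *hsp-60* was at 396, 378 and 346 CPM in the *daf-2* samples and 595, 551 and 593 CPM in the WT samples (log2 fold change -0.64, SE 0.054, adjusted p = 5.58e-06). Over the list of Hsp70 and Hsp90 chaperones and their partners, 1 of 12 was higher and 5 were lower, and the sign of the median changed with library totals.

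Called genes were ranked if the groups did not overlap and the higher group had a mean of at least 10 CPM. Genes with only a cosmid name were left out. Larger rises, up to 12.7 on the log2 scale, lay outside these limits. The genes with the largest fold changes within them came from several families. The 12 that rose most included 3 cuticle collagens. *col-50* had 1703 counts over the *daf-2* samples and 2 counts over the WT samples, a ratio of 924 with a 95% counting interval of 255 to 7638. *col-183* was at 11.7, 10.4 and 14.3 CPM in the *daf-2* samples and 0.229, 0.197 and 0.0932 CPM in the WT samples (log2 fold change 6.13, SE 0.28, adjusted p = 7.37e-08) and *col-167* at 101, 104.04 and 59.3 CPM against 3.77, 4.33 and 2.70 CPM in the WT samples (log2 fold change 4.63, SE 0.24, adjusted p = 1.88e-07). Collagens are the main proteins of the cuticle. *arrd-11*, an arrestin-domain gene, was at 10.5, 15.7 and 24.6 CPM in the *daf-2* samples and 0.286, 0.328 and 0.0932 CPM in the WT samples (log2 fold change 6.21, SE 0.45, adjusted p = 1.87e-06). *cest-1.1*, a carboxylesterase gene, had 10.6, 10.4 and 9.86 CPM against 0.343, 0 and 0.326 CPM in the WT samples (log2 fold change 5.39, SE 0.34, adjusted p = 7.20e-07). *far-3*, which encodes a secreted fatty acid and retinol-binding protein, was at 435, 397 and 339.6 CPM in the *daf-2* samples and 16.9, 17.4 and 19.5 CPM in the WT samples (log2 fold change 4.44, SE 0.098, adjusted p = 1.75e-10), and it overlaps *far-5* on the other strand. *far-5* fell. Since the library kit did not mark strand, reads from the shared stretch could belong to either. *dct-8* and *clx-1* rose by 4.29 and 5.01, and the replicates of *clx-1* spread from 6.46 to 19.2 CPM.

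Several neighbouring genes on chromosome I were called, in both directions. *icmt-1*, annotated for isoprenylcysteine carboxyl methyltransferase, lies at I:4901918-4903264 on the plus strand (WBcel235, Ensembl release 115). It was at 224, 193 and 207 CPM in the *daf-2* samples and 0.801, 0.591 and 0.373 CPM in the WT samples (log2 fold change 8.49, SE 0.13, adjusted p = 1.11e-11). *unc-38*, a subunit of the levamisole-sensitive acetylcholine receptor of muscle, lies next to it at I:4897620-4900974 on the minus strand. *unc-38* was at 29.1, 30.3 and 28.3 CPM in the *daf-2* samples and 0.972, 0.787 and 0.978 CPM in the WT samples (log2 fold change 4.98, SE 0.13, adjusted p = 7.66e-10), and all *daf-2* samples were far above all WT samples. *F21F3.2*, the next gene beyond *icmt-1*, had 8.91, 9.25 and 8.51 CPM against 2.63, 3.48 and 2.05 CPM in the WT samples (log2 fold change 1.73, SE 0.19, adjusted p = 2.68e-05). Farther out *pgal-1* was at 28.8, 29.2 and 27.2 CPM in the *daf-2* samples and 29.97, 27.5 and 28.1 CPM in the WT samples (log2 fold change -0.0077, SE 0.073, adjusted p = 0.942). Genes for the partner subunits of UNC-38 did not rise. *unc-29* was at 0.851, 1.81 and 1.101 CPM in the *daf-2* samples and 1.201, 1.77 and 1.54 CPM in the WT samples (log2 fold change -0.29, SE 0.32, adjusted p = 0.485), *unc-63* had a log2 fold change of 0.33 without a call, and *lev-1* fell by 0.80. *unc-38* overlaps *F21F3.4* on the other strand, so reads from the shared stretch could belong to either. *F21F3.4* rose by 0.47. Farther on that side *glc-2*, a subunit of glutamate-gated chloride channels, was lower, at 2.75, 2.64 and 2.50 CPM against 11.1, 8.07 and 9.83 CPM in the WT samples (log2 fold change -1.88, SE 0.16, adjusted p = 6.67e-06), and it lies within *F25F8.1* on the other strand.

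The 12 genes that fell most within the same limits were of different kinds. *oac-20*, an O-acyltransferase homologue, was at 1.80, 3.06 and 5.16 CPM in the *daf-2* samples and 47.5, 52.7 and 52.3 CPM in the WT samples (log2 fold change -3.92, SE 0.23, adjusted p = 3.81e-07), and it overlaps *fbxa-99*. *pept-1*, the intestinal importer of di- and tripeptides, was at 8.91, 6.82 and 4.405 CPM in the *daf-2* samples and 59.996, 53.4 and 59.5 CPM in the WT samples (log2 fold change -3.10, SE 0.18, adjusted p = 3.24e-07). *nhr-6*, a nuclear receptor of the NR4A type, had 4.21, 4.03 and 3.404 CPM against 20.02, 27.04 and 38.3 CPM in the WT samples (log2 fold change -2.88, SE 0.23, adjusted p = 2.98e-06). Each of these was lower in all 3 *daf-2* samples than in any WT sample. *ncx-7*, which encodes a sodium-calcium exchanger, was at 1.15, 1.04 and 0.701 CPM in the *daf-2* samples and 9.67, 9.32 and 11.7 CPM in the WT samples (log2 fold change -3.41, SE 0.21, adjusted p = 5.30e-07). *abhd-3.2*, an alpha/beta hydrolase gene, was at 9.51, 8.48 and 3.80 CPM in the *daf-2* samples and 43.8, 41.9 and 44.4 CPM in the WT samples (log2 fold change -2.59, SE 0.23, adjusted p = 6.16e-06). *mth-1*, *fbxa-72* and *grsp-4* had log2 fold changes of -3.31, -3.47 and -2.54.

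Within the insulin pathway itself, several intracellular kinases were higher and several partners were lower. Of the 15 core genes, 10 were called higher and 4 lower, all of them by less than 2-fold except *akt-2*. *akt-2*, a kinase that acts below the receptor, was at 35.3, 39.2 and 42.6 CPM in the *daf-2* samples and 15.9, 18.4 and 17.2 CPM in the WT samples (log2 fold change 1.19, SE 0.092, adjusted p = 2.82e-06). Rises of 0.50, 0.57 and 0.42 were found for *akt-1*, *pdk-1* and *rict-1*, the last a subunit of the TORC2 complex. *age-1*, the phosphoinositide kinase, was at 107, 111 and 117 CPM in the *daf-2* samples and 97.2, 92.0 and 96.1 CPM in the WT samples (log2 fold change 0.24, SE 0.047, adjusted p = 0.00186). This rise was not called with limma on TPM values. On the other side, the related kinase gene *sgk-1* and the 14-3-3 gene *par-5* had log2 fold changes of -0.42 and -0.24. The call of *sgk-1* was lost without WT replicate 1, at -0.31, and with library totals, at -0.30. It was also lost with limma on TPM values.

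Of 22 insulin-like peptides with enough counts, out of 39 in the table, 9 were higher and 1 was lower, with a median of 0.56; DESeq2 called 6 higher and 0 lower. Their levels were low, and a gene could pass the filter through the group where it was higher. With at least 10 counts required in every sample the median was 0.12. *ins-37* was at 5.56, 3.69 and 5.91 CPM in the *daf-2* samples and 0.915, 1.44 and 0.839 CPM in the WT samples (log2 fold change 2.28, SE 0.27, adjusted p = 5.75e-05). *ins-17* had 5.86, 7.58 and 7.61 CPM against 4.75, 4.27 and 4.33 CPM in the WT samples (log2 fold change 0.65, SE 0.16, adjusted p = 0.00545). *ins-7*, whose transcription is known to be repressed by DAF-16, was the only member called lower, at 1.001, 1.46 and 1.25 CPM against 2.57, 2.03 and 2.05 CPM in the WT samples (log2 fold change -0.85, SE 0.26, adjusted p = 0.0172), a call that was lost without WT replicate 1 or *daf-2* replicate 1, at -0.74 and -0.72. *daf-28*, a ligand that favours growth, was at 3.30, 2.36 and 2.60 CPM in the *daf-2* samples and 2.52, 4.003 and 2.42 CPM in the WT samples, without a called difference (log2 fold change -0.086, SE 0.25, adjusted p = 0.797). The groups of the first 3 of these genes did not overlap. Summed over the list, the TPM were 159.8, 164 and 173 in *daf-2* and 97.4, 91.9 and 94.95 in WT.

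Of the 11 tested genes of the other dauer pathways, TGF-beta and steroid hormone signalling, 2 were higher and 4 lower. *daf-8*, a Smad of the TGF-beta pathway, was at 19.4, 17.04 and 16.07 CPM in the *daf-2* samples and 10.6, 10.04 and 9.09 CPM in the WT samples (log2 fold change 0.83, SE 0.11, adjusted p = 0.000128). *daf-36*, an oxygenase of steroid hormone synthesis, had 8.31, 8.97 and 5.76 CPM against 12.64, 13.5 and 12.4 CPM in the WT samples (log2 fold change -0.75, SE 0.15, adjusted p = 0.00214). Of 18 transcription factors known from longevity, 1 was higher and 5 were lower. The median of -0.046 turned to 0.076 with library totals. *pqm-1*, a zinc finger factor that shares sites with DAF-16, was at 38.7, 42.5 and 37.99 CPM in the *daf-2* samples and 30.7, 26.9 and 26.9 CPM in the WT samples (log2 fold change 0.49, SE 0.080, adjusted p = 0.000451). *mxl-3*, a repressor of lipase genes under feeding, had 10.1, 5.84 and 7.11 CPM against 14.9, 11.2 and 14.5 CPM in the WT samples (log2 fold change -0.81, SE 0.19, adjusted p = 0.00421). *hsf-1*, *skn-1* and *hlh-30* were not called, with log2 fold changes of 0.076, -0.072 and 0.041. Of the 9 Hox genes and cofactors, 3 were higher and 0 lower. The Hox gene *ceh-13* was at 4.36, 4.87 and 6.16 CPM in the *daf-2* samples and 2.34, 3.48 and 3.17 CPM in the WT samples (log2 fold change 0.78, SE 0.21, adjusted p = 0.00955), and the cofactor *ceh-20* had 14.1, 16.97 and 14.97 CPM against 11.5, 10.8 and 11.1 CPM in the WT samples (log2 fold change 0.46, SE 0.10, adjusted p = 0.00389). The replicates of *mab-5* and *egl-5*, at under 2 CPM, overlapped between the groups.

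Detoxification enzymes changed in both directions. Glutathione S-transferases, which conjugate reactive compounds, were higher for 15 of 36 and lower for 6. *gst-29* was at 22.9, 20.9 and 23.9 CPM in the *daf-2* samples and 4.003, 5.05 and 5.31 CPM in the WT samples (log2 fold change 2.23, SE 0.12, adjusted p = 2.81e-07). *gst-4*, widely used as a readout of SKN-1, was at 42.7, 51.5 and 69.5 CPM in the *daf-2* samples and 27.97, 26.1 and 25.7 CPM in the WT samples (log2 fold change 1.04, SE 0.15, adjusted p = 0.000172). In contrast, *gst-22* had 3.96, 6.47 and 9.36 CPM against 21.7, 25.004 and 30.005 CPM in the WT samples (log2 fold change -1.96, SE 0.24, adjusted p = 6.07e-05). Of 52 cytochrome P450 genes, 23 were higher and 10 lower, with a median of 0.33. This median was 0.19 without *daf-2* replicate 3, 0.14 with limma on log2(TPM + 1) and 0.075 with at least 10 counts required in every sample. *cyp-35B1*, a known DAF-16 target, was at 5.81, 6.68 and 10.8 CPM in the *daf-2* samples and 1.43, 0.722 and 0.746 CPM in the WT samples (log2 fold change 3.01, SE 0.32, adjusted p = 2.49e-05), and *cyp-33A1* at 28.2, 29.9 and 38.4 CPM against 14.4, 14.6 and 12.21 CPM in the WT samples (log2 fold change 1.24, SE 0.13, adjusted p = 1.94e-05). *cyp-13A2* was lower, at 1.502, 1.32 and 1.55 CPM against 9.38, 8.93 and 9.04 CPM in the WT samples (log2 fold change -2.63, SE 0.16, adjusted p = 5.15e-07). The UDP-glucuronosyltransferases, which attach sugars to lipophilic compounds, split evenly, 19 higher and 19 lower of 57, and their median changed sign with the scaling and with other settings. *ugt-62* rose to 118, 121 and 129 CPM against 66.9, 63.1 and 69.2 CPM in the WT samples (log2 fold change 0.89, SE 0.052, adjusted p = 4.19e-07). In contrast, *ugt-44* was lower, at 30.7, 38.8 and 30.2 CPM against 119.8, 133 and 147 CPM in the WT samples (log2 fold change -2.01, SE 0.099, adjusted p = 1.08e-07).

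Several enzymes that make sugar from fat and store it as trehalose were higher. Of 18 genes of the glyoxylate cycle, gluconeogenesis and trehalose metabolism, 11 rose and 4 fell, with a median of 0.47. *icl-1*, the bifunctional enzyme of the glyoxylate cycle that lets the worm turn fat into sugar, was at 796, 851 and 924 CPM in the *daf-2* samples and 287, 296 and 241 CPM in the WT samples (log2 fold change 1.64, SE 0.078, adjusted p = 8.54e-08). *pck-1*, a phosphoenolpyruvate carboxykinase at the entry of gluconeogenesis, was at 597, 595 and 576 CPM in the *daf-2* samples and 204, 202 and 195 CPM in the WT samples (log2 fold change 1.56, SE 0.040, adjusted p = 6.96e-10). The spread within each group was small beside the gap for both. *tps-2*, a trehalose phosphate synthase, was at 331, 365 and 361 CPM in the *daf-2* samples and 159, 145 and 134 CPM in the WT samples (log2 fold change 1.27, SE 0.063, adjusted p = 1.15e-07), and its partner *tps-1* rose by 0.97. *gob-1*, the phosphatase that completes trehalose, rose by 0.52. The genes that fell included the trehalases *tre-1*, *tre-2* and *tre-3*, which split trehalose. The call of *tre-3* was lost with limma on TPM values. *tre-2* was at 63.99, 66.8 and 52.4 CPM in the *daf-2* samples and 111, 100.1 and 106 CPM in the WT samples (log2 fold change -0.79, SE 0.081, adjusted p = 1.81e-05), and a further trehalase, *tre-4*, was higher with a log2 fold change of 0.70. *gpdh-1*, an enzyme of glycerol synthesis, had 6.41, 7.65 and 5.61 CPM against 15.2, 13.3 and 15.1 CPM in the WT samples (log2 fold change -1.16, SE 0.13, adjusted p = 4.23e-05).

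In glycolysis 10 of 19 genes were higher and 4 lower. *gpd-3*, a glyceraldehyde phosphate dehydrogenase, was at 837, 788 and 808 CPM in the *daf-2* samples and 501, 501 and 505 CPM in the WT samples (log2 fold change 0.69, SE 0.040, adjusted p = 3.77e-07), and *gpd-2*, its close relative, rose by 0.78. Enzymes of irreversible steps were among the lower genes. *hxk-1*, a hexokinase, had 223, 221 and 212 CPM against 300.3, 300.2 and 290.3 CPM in the WT samples (log2 fold change -0.44, SE 0.039, adjusted p = 6.90e-06), and the pyruvate kinase *pyk-1* fell by 0.24, which was not called with limma on TPM values. In the citric acid cycle 2 genes were higher and 11 lower of 23, but the median of -0.096 became 0.027 with library totals. *cts-1*, citrate synthase, was at 724, 705 and 698 CPM in the *daf-2* samples and 867, 877 and 896 CPM in the WT samples (log2 fold change -0.31, SE 0.039, adjusted p = 8.09e-05).

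Many nuclear genes of mitochondrial respiration fell by small amounts. None of 63 subunit genes of the respiratory chain and ATP synthase was higher and 35 were lower, with a median of -0.20. With library totals 2 were higher and 13 lower, at a median of -0.076. *atp-1*, a subunit of ATP synthase, was at 2153, 2049 and 1968 CPM in the *daf-2* samples and 2671, 2719 and 2753 CPM in the WT samples (log2 fold change -0.40, SE 0.048, adjusted p = 6.16e-05). Mitochondrial ribosomal proteins were alike, 0 higher and 34 lower of 70, or 13 lower with library totals. Of 12 genes of the mitochondrial genome, 8 were lower and 0 higher, at a median of -0.47, and 4 were lower with limma on TPM values. Their summed TPM spread more among the WT samples, from 3457 to 5902, than among the *daf-2* samples, from 3029 to 3312.

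Lipid genes changed in both directions. Of 16 tested lipases, out of 26 in the table, 7 rose and 2 fell. *lipl-2*, a lipase-like gene, was at 35.6, 31.4 and 31.4 CPM in the *daf-2* samples and 7.89, 5.05 and 4.15 CPM in the WT samples (log2 fold change 2.53, SE 0.18, adjusted p = 1.67e-06). *lipl-4*, a lysosomal lipase known to be raised in long-lived mutants, had 4.76, 4.17 and 4.505 CPM against 1.201, 1.77 and 1.26 CPM in the WT samples (log2 fold change 1.68, SE 0.21, adjusted p = 8.50e-05). These genes did not overlap between the groups. Desaturases, elongases and fatty acid synthesis enzymes were mostly lower, 13 of 20 against 5 higher. *fasn-1*, fatty acid synthase, was at 177, 178 and 154 CPM in the *daf-2* samples and 253, 245 and 261 CPM in the WT samples (log2 fold change -0.58, SE 0.057, adjusted p = 1.49e-05). *fat-3*, the delta-6 desaturase, had 33.996, 41.6 and 43.4 CPM against 67.5, 60.4 and 64.4 CPM in the WT samples (log2 fold change -0.69, SE 0.087, adjusted p = 8.01e-05). The call of *fat-3* was lost with limma on TPM values. The delta-9 desaturases, which make monounsaturated fatty acids, did not move together. *fat-5* was at 92.5, 65.02 and 44.1 CPM in the *daf-2* samples and 30.8, 24.5 and 25.5 CPM in the WT samples (log2 fold change 1.32, SE 0.21, adjusted p = 0.00046), with wide spread among the mutants, and *fat-6* at 465, 422 and 384 CPM against 327, 327 and 319.8 CPM in the WT samples (log2 fold change 0.38, SE 0.061, adjusted p = 0.000395). *fat-7* was lower, at 2.25, 2.29 and 1.40 CPM against 3.89, 2.89 and 3.87 CPM in the WT samples (log2 fold change -0.86, SE 0.24, adjusted p = 0.0128), and was not called without WT replicate 3, at -0.79. In beta-oxidation, 11 genes of 42 were higher (26.2%) and 14 lower (33.3%), against 25.5% and 22.5% of all genes, with a median of 0.0235. The share higher was thus close to that of all genes. *acox-1.2*, a peroxisomal acyl-CoA oxidase of ascaroside synthesis, stood out at 4.61, 4.24 and 2.90 CPM against 17.8, 17.7 and 17.7 CPM in the WT samples (log2 fold change -2.18, SE 0.15, adjusted p = 1.41e-06).

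All 6 vitellogenins, the yolk lipoproteins that the intestine makes for oocytes, were lower, with a median of -0.56. The direction held with library totals and with TPM, each with 6 lower. *vit-1* was at 3406, 3098 and 2298 CPM in the *daf-2* samples and 7173, 7074 and 7058 CPM in the WT samples (log2 fold change -1.28, SE 0.11, adjusted p = 7.49e-06), with *daf-2* replicate 3 the lowest. *vit-2* had 23052, 22604 and 22512 CPM against 28196, 26656 and 27479 CPM in the WT samples (log2 fold change -0.27, SE 0.060, adjusted p = 0.00317). The summed TPM of the 6 genes were 17237, 17553 and 17044 in *daf-2* and 23432, 21580.1 and 22207 in WT, so the mutants held between 76.1% and 78.3% of the WT mean. *far-1*, a fatty acid and retinol-binding protein, was at 452, 412 and 396 CPM in the *daf-2* samples and 705, 741 and 748 CPM in the WT samples (log2 fold change -0.80, SE 0.053, adjusted p = 9.27e-07).

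Single genes of the methionine cycle and of phosphatidylcholine synthesis were lower. *sams-1*, the main S-adenosylmethionine synthetase, was at 50.7, 36.9 and 23.7 CPM in the *daf-2* samples and 211, 208 and 244 CPM in the WT samples (log2 fold change -2.57, SE 0.19, adjusted p = 2.17e-06). *pmt-2*, a phosphoethanolamine methyltransferase that uses S-adenosylmethionine, was at 261, 235 and 185 CPM in the *daf-2* samples and 522, 549 and 551 CPM in the WT samples (log2 fold change -1.25, SE 0.097, adjusted p = 2.73e-06), and *pmt-1* fell by 0.53. No *daf-2* sample reached the lowest WT sample for these genes, and *daf-2* replicate 3 was the lowest for each. *sams-5*, a paralogue of *sams-1*, was higher, at 28.3, 24.5 and 22.3 CPM in the *daf-2* samples and 2.34, 2.76 and 1.77 CPM in the WT samples (log2 fold change 3.47, SE 0.16, adjusted p = 7.56e-08). At the branch to cysteine, *cbs-2* rose by 1.65 and *cth-1* was at 33.7, 32.8 and 32.7 CPM against 64.1, 71.3 and 67.9 CPM in the WT samples (log2 fold change -1.03, SE 0.060, adjusted p = 3.77e-07). Over the 20 genes of the vitamin B12-dependent and methionine pathways, 6 were higher and 9 lower, and the sign of the median changed with library totals.

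Genes for the breakdown of tryptophan and tyrosine were mostly lower. In the list 7 of 11 genes fell and 1 rose. *haao-1*, the dioxygenase of the kynurenine pathway, was at 11.9, 11.8 and 11.3 CPM in the *daf-2* samples and 35.6, 30.9 and 34.6 CPM in the WT samples (log2 fold change -1.54, SE 0.088, adjusted p = 3.41e-07). *tatn-1*, tyrosine aminotransferase, had 13.2, 16.482 and 15.2 CPM against 34.1, 34.1 and 36.99 CPM in the WT samples (log2 fold change -1.24, SE 0.094, adjusted p = 2.46e-06), and *hpd-1*, the next enzyme, fell by 0.64. *tdo-2*, the first enzyme of tryptophan breakdown, was at 64.5, 55.4 and 52.6 CPM in the *daf-2* samples and 56.8, 54.5 and 59.4 CPM in the WT samples, with overlapping groups (log2 fold change 0.016, SE 0.076, adjusted p = 0.881). Among the 10 aquaporins, *aqp-4* fell by 1.77 and *aqp-2* was higher, at 64.8, 65.5 and 61.1 CPM against 34.4, 37.2 and 37.7 CPM in the WT samples (log2 fold change 0.81, SE 0.061, adjusted p = 2.33e-06).

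Immune effector genes changed in both directions. Lysozymes and caenopores, which lyse bacteria, were higher for 5 of 8 and 8 of 19 tested genes and lower for 1 and 2. *spp-2*, a caenopore gene, was at 138, 126 and 104.1 CPM in the *daf-2* samples and 16.7, 19.6 and 16.6 CPM in the WT samples (log2 fold change 2.80, SE 0.11, adjusted p = 1.98e-08). *lys-8*, a lysozyme gene of the intestine, was at 276, 267 and 273 CPM in the *daf-2* samples and 163, 168 and 161 CPM in the WT samples (log2 fold change 0.73, SE 0.038, adjusted p = 1.66e-07), and *spp-1* rose by 0.74. Epidermal antimicrobial peptides rose more often than they fell, 17 against 9 of 33. *nlp-29*, induced by fungal infection and wounding, was at 17.3, 17.6 and 21.5 CPM in the *daf-2* samples and 8.35, 6.23 and 6.94 CPM in the WT samples (log2 fold change 1.39, SE 0.14, adjusted p = 1.35e-05). *fipr-22* had 33.996, 42.98 and 91.0 CPM against 6.98, 4.66 and 5.68 CPM in the WT samples (log2 fold change 3.27, SE 0.35, adjusted p = 2.42e-05), with replicate 3 far above the other mutants.

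The CUB-domain and infection response genes of the intestine were mostly lower. Of 12 genes, 7 fell and 1 rose, with a median of -0.57. *irg-8* was at 68.6, 52.5 and 36.5 CPM in the *daf-2* samples and 249, 277 and 265 CPM in the WT samples (log2 fold change -2.33, SE 0.16, adjusted p = 1.35e-06). *dod-22* was at 1.101, 0.904 and 1.45 CPM in the *daf-2* samples and 13.8, 14.8 and 12.11 CPM in the WT samples (log2 fold change -3.52, SE 0.18, adjusted p = 1.70e-07), and *dod-24* fell by 2.98. The dod genes were named for their dependence on DAF-16, so their direction here is not independent of what is known of this pathway. *dod-3*, in contrast, was higher, at 60.1, 66.8 and 75.4 CPM against 7.32, 6.69 and 3.31 CPM in the WT samples (log2 fold change 3.58, SE 0.20, adjusted p = 3.24e-07). C-type lectins split, 31 higher and 28 lower of 87. *clec-266* was at 59.6, 77.6 and 85.5 CPM in the *daf-2* samples and 13.3, 14.8 and 14.1 CPM in the WT samples (log2 fold change 2.40, SE 0.12, adjusted p = 1.70e-07) and *clec-186* at 34.5, 26.3 and 26.8 CPM against 85.1, 86.8 and 88.4 CPM in the WT samples (log2 fold change -1.57, SE 0.091, adjusted p = 3.77e-07).

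The 3 p38 MAP kinase genes, which sit next to each other in an operon and serve immunity, were all higher. *pmk-2* was at 25.7, 32.2 and 31.1 CPM in the *daf-2* samples and 5.78, 5.71 and 5.404 CPM in the WT samples (log2 fold change 2.40, SE 0.12, adjusted p = 9.19e-08), *pmk-1* at 31.6, 36.1 and 38.6 CPM against 17.96, 17.1 and 18.5 CPM in the WT samples (log2 fold change 0.99, SE 0.090, adjusted p = 8.88e-06) and *pmk-3* rose by 0.83. The genes of their upstream partners *tir-1*, *nsy-1* and *sek-1* were not called, at log2 fold changes of 0.14, -0.078 and -0.090.

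Genes of the translation machinery were mostly lower. Of 82 cytosolic ribosomal protein genes, 79 fell and 0 rose, and the same number fell with library totals. Their median of -0.43 was a modest change. *rpl-27* was at 725, 691 and 660.0 CPM in the *daf-2* samples and 954, 1018 and 1006 CPM in the WT samples (log2 fold change -0.52, SE 0.048, adjusted p = 9.17e-06). In TPM these genes took 19.2% of the mutant transcripts and 23.6% of the WT transcripts. Translation factors were lower for 30 of 43 and aminoacyl-tRNA synthetases for 22 of 32, with 1 and 0 higher. With library totals 20 and 13 were lower. *eif-2alpha*, a subunit of initiation factor eIF2, had 153, 143 and 145 CPM against 229, 210.3 and 223 CPM in the WT samples (log2 fold change -0.59, SE 0.045, adjusted p = 2.73e-06). *pars-1*, the prolyl-tRNA synthetase, was at 164, 153 and 155 CPM in the *daf-2* samples and 238, 244 and 241 CPM in the WT samples (log2 fold change -0.61, SE 0.041, adjusted p = 1.01e-06).

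The cytosolic chaperonin and the proteasome were lower as well. All 8 subunits of the cytosolic chaperonin were lower, as they were with library totals. Proteasome subunits were lower for 29 of 31, with 0 higher, and for 24 with library totals. *rpt-4*, an ATPase of the regulatory particle, was at 247, 241 and 233 CPM in the *daf-2* samples and 308, 329 and 316 CPM in the WT samples (log2 fold change -0.40, SE 0.042, adjusted p = 1.92e-05). In the endoplasmic reticulum, *xbp-1*, the factor of the unfolded protein response, was higher, at 407, 409 and 392 CPM against 297, 289 and 299 CPM in the WT samples (log2 fold change 0.45, SE 0.038, adjusted p = 5.50e-06). The chaperone gene *hsp-4*, the usual readout of that response, was at 425, 391 and 353 CPM in the *daf-2* samples and 401, 414 and 395 CPM in the WT samples, with overlapping groups (log2 fold change -0.051, SE 0.060, adjusted p = 0.517).

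Autophagy genes were higher more often than lower, 10 against 4 of 30, with a median of 0.097. With library totals they were 15 against 1. With TMM the shares were 33.3% higher and 13.3% lower, against 25.5% and 22.5% of all genes. The log2 fold changes of the list ran from -1.45 to 1.54. *atg-2*, which transfers lipid to the growing autophagosome, was at 153, 158 and 166 CPM in the *daf-2* samples and 70.2, 76.6 and 76.9 CPM in the WT samples (log2 fold change 1.09, SE 0.051, adjusted p = 7.56e-08). *epg-2*, an adaptor of aggregate autophagy known from embryos, had 115, 118 and 140.4 CPM against 39.8, 54.3 and 34.9 CPM in the WT samples (log2 fold change 1.54, SE 0.13, adjusted p = 6.12e-06), and the cargo receptor gene *sqst-1* was at 167.4, 165 and 185 CPM against 89.6, 95.4 and 93.5 CPM in the WT samples (log2 fold change 0.89, SE 0.052, adjusted p = 3.81e-07). *lgg-1*, the Atg8 homologue, rose by 0.43. Lysosomal genes were more often lower. Of 51 genes of the proton pump and lysosomal proteases, 30 fell and 11 rose. In the symbol family of the proton pump 19 of 20 subunit genes were lower. *vha-6*, an intestinal subunit at the lumen, was at 158, 154 and 142 CPM in the *daf-2* samples and 242, 249.7 and 242 CPM in the WT samples (log2 fold change -0.69, SE 0.046, adjusted p = 9.10e-07), and *vha-11* had 127, 121 and 113 CPM against 206, 207 and 204 CPM in the WT samples (log2 fold change -0.78, SE 0.047, adjusted p = 5.30e-07). Among the proteases, *cpr-5* was at 60.7, 52.2 and 41.5 CPM in the *daf-2* samples and 156, 159.5 and 171 CPM in the WT samples (log2 fold change -1.66, SE 0.10, adjusted p = 6.99e-07), whereas *cpr-1* and *asp-3* rose by 1.21 and 0.58.

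Cuticle collagens were divided. Of 103, 41 rose and 20 fell, with a median of 0.52, or 0.17 without *daf-2* replicate 2 and 0.23 with at least 10 counts required in every sample. *col-139* was at 638, 584 and 516 CPM in the *daf-2* samples and 133, 149.7 and 154 CPM in the WT samples (log2 fold change 1.99, SE 0.078, adjusted p = 2.33e-08), *col-81* at 389, 341 and 261 CPM against 63.5, 76.7 and 81.2 CPM in the WT samples (log2 fold change 2.16, SE 0.13, adjusted p = 5.51e-07) and *bli-6* at 68.6, 64.5 and 57.6 CPM against 11.8, 15.1 and 14.4 CPM in the WT samples (log2 fold change 2.21, SE 0.10, adjusted p = 7.37e-08). *col-119*, the member with the highest TPM in WT, was lower, at 2992, 2638 and 2358 CPM against 3795, 3960.2 and 3886 CPM in the WT samples (log2 fold change -0.54, SE 0.075, adjusted p = 0.000158), and *col-124* was at 1829, 1607 and 1424 CPM in the *daf-2* samples and 2669, 2897 and 2839 CPM in the WT samples (log2 fold change -0.79, SE 0.079, adjusted p = 1.67e-05). *col-19*, which marks the adult cuticle, had 1324, 1207 and 1088 CPM against 1595, 1719 and 1691 CPM in the WT samples (log2 fold change -0.47, SE 0.067, adjusted p = 0.000186). The summed TPM of the list were 55459, 52619.8 and 47417 in *daf-2* and 54300.3, 56199 and 55607 in WT, and the groups overlapped. Basement membrane genes were lower for 9 of 15 and higher for 0. *fbl-1*, fibulin, was at 8.11, 7.65 and 5.56 CPM in the *daf-2* samples and 20.1, 18.05 and 18.8 CPM in the WT samples (log2 fold change -1.42, SE 0.14, adjusted p = 1.26e-05), and the type IV collagens *emb-9* and *let-2* fell by 0.34 and 0.32.

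Genes of the molting cycle were called at close to the share of all genes. Of 19, 5 were higher and 4 lower, and the sign of the median changed with library totals. *mlt-11*, a protease inhibitor needed at the molt, was at 11.01, 14.1 and 15.02 CPM in the *daf-2* samples and 4.63, 6.10 and 3.54 CPM in the WT samples (log2 fold change 1.51, SE 0.19, adjusted p = 8.62e-05), and *noah-1*, a protein of the embryonic and larval cuticle, was at 26.7, 31.8 and 31.1 CPM against 17.3, 20.3 and 15.9 CPM in the WT samples (log2 fold change 0.75, SE 0.11, adjusted p = 0.000201). *hbl-1*, a heterochronic factor of larval stages, was at 8.46, 7.44 and 11.01 CPM in the *daf-2* samples and 3.89, 1.97 and 5.22 CPM in the WT samples (log2 fold change 1.25, SE 0.27, adjusted p = 0.00302), and *lin-29*, the factor of the adult epidermis, had 3.91, 3.34 and 3.30 CPM against 6.01, 4.66 and 7.27 CPM in the WT samples (log2 fold change -0.77, SE 0.19, adjusted p = 0.00649). The call of *lin-29* was lost with limma on TPM values. *hbl-1* and *lin-29* belong to the heterochronic list, in which 3 of 11 genes were higher (27.3%), 2 lower (18.2%) and 6 not called. These shares were near the 25.5% and 22.5% of all genes. The median of this list was -0.12, or 0.0013 with library totals.

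Genes of the intestine were more often lower than higher. Of 14 intestine genes, 8 fell and 3 rose, with a median of -0.58. *act-5*, the actin of the brush border, was at 215, 194 and 156 CPM in the *daf-2* samples and 327, 355 and 376 CPM in the WT samples (log2 fold change -0.90, SE 0.096, adjusted p = 2.41e-05). *nhx-2*, a sodium-proton exchanger that supports peptide uptake, had 10.01, 14.2 and 12.31 CPM against 33.2, 27.6 and 31.1 CPM in the WT samples (log2 fold change -1.34, SE 0.12, adjusted p = 9.73e-06), and the intermediate filament gene *ifb-2* fell by 0.72. *ges-1*, the gut esterase, went against them, at 85.3, 78.8 and 70.7 CPM in the *daf-2* samples and 25.2, 27.5 and 21.6 CPM in the WT samples (log2 fold change 1.67, SE 0.095, adjusted p = 3.40e-07). The GATA factor *elt-2*, which specifies intestine, was at 9.26, 6.82 and 5.86 CPM in the *daf-2* samples and 12.18, 8.73 and 9.32 CPM in the WT samples, with overlapping groups (log2 fold change -0.46, SE 0.19, adjusted p = 0.0626). It was called lower without *daf-2* replicate 1, at -0.68.

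In body-wall muscle 5 of 24 genes were higher and 3 lower, and with library totals 12 were higher and 1 lower. *myo-3*, a myosin heavy chain, was at 254, 226 and 194 CPM in the *daf-2* samples and 88.99, 94.3 and 96.3 CPM in the WT samples (log2 fold change 1.27, SE 0.083, adjusted p = 8.96e-07). *unc-54*, the major myosin heavy chain of this muscle, was at 2307, 2178 and 1957 CPM in the *daf-2* samples and 2128, 2208 and 2250.2 CPM in the WT samples, and the groups overlapped (log2 fold change -0.032, SE 0.061, adjusted p = 0.695). Pan-neuronal and synaptic genes had 4 members higher and 4 lower of 27, or 7 higher and 2 lower with library totals. With TMM each share was 14.8%, below the 25.5% and 22.5% of all genes. The log2 fold changes of this list ran from -0.56 to 1.29. *unc-31*, needed for the release of dense-core vesicles, was at 13.1, 11.1 and 9.21 CPM in the *daf-2* samples and 4.75, 4.27 and 4.57 CPM in the WT samples (log2 fold change 1.29, SE 0.16, adjusted p = 5.84e-05). *tom-1*, tomosyn, which restrains vesicle release, had 27.2, 28.3 and 29.8 CPM against 16.8, 16.7 and 19.1 CPM in the WT samples (log2 fold change 0.69, SE 0.087, adjusted p = 8.02e-05). In a separate list of GABA, glutamate and monoamine neurons, 0 of 14 tested genes were higher and 2 were lower. In it the glutamate transporter *glt-1* and *bas-1*, a decarboxylase for dopamine and serotonin, fell by 0.81 and 0.89. A list of cholinergic neurons had 1 of 13 tested genes higher, *unc-38*, and 2 lower. Neuropeptide genes of the flp and nlp families had 6 members higher (7.59%) and 4 lower (5.06%) of 79, both below the 25.5% and 22.5% of all genes.

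Ciliary genes, expressed in sensory neurons, were higher or not called. Of 29 genes 8 rose and 0 fell, and 5 were higher with DESeq2. The share called higher, 27.6%, was close to the 25.5% of all genes. The median of 0.32 became 0.15 without *daf-2* replicate 3 and 0.53 with limma on log2(TPM + 1). *dyf-3* was at 18.9, 16.204 and 16.52 CPM in the *daf-2* samples and 5.205, 5.45 and 6.29 CPM in the WT samples (log2 fold change 1.601, SE 0.12, adjusted p = 2.30e-06) and *kap-1*, a subunit of the kinesin-2 motor, at 3.15, 3.34 and 3.10 CPM against 1.14, 1.51 and 1.63 CPM in the WT samples (log2 fold change 1.15, SE 0.22, adjusted p = 0.00133). These levels were low. In the list of somatic gonad, uterus and vulva, 7 of 18 were lower and 2 higher. *cdh-3*, a cadherin of the vulva, uterus and seam, was at 4.86, 5.70 and 6.41 CPM in the *daf-2* samples and 13.6, 10.6 and 12.35 CPM in the WT samples (log2 fold change -1.11, SE 0.15, adjusted p = 0.000108), and *inx-8*, a gap junction gene of the gonadal sheath, was at 84.5, 85.7 and 85.6 CPM against 113, 105 and 108 CPM in the WT samples (log2 fold change -0.35, SE 0.044, adjusted p = 8.01e-05). *vap-1*, a gene of amphid sheath glia, had 0.951, 0.974 and 1.05 CPM against 5.60, 6.23 and 4.57 CPM in the WT samples (log2 fold change -2.45, SE 0.22, adjusted p = 7.10e-06).

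Transcripts of sperm were mostly higher. Major sperm proteins drive sperm crawling and signal to oocytes, and hermaphrodites make their sperm before adulthood. In a list of these and other small sperm proteins, 48 of 59 tested genes rose and 2 fell, with a median of 0.79. Many of these genes are near-identical copies, and reads may be split among them. The sum over the list avoids this. It was 6284, 6510.2 and 6333 TPM in *daf-2* and 3138, 3763 and 3517 TPM in WT. The *glp-4* samples of day 1 had 104.5 and 114.4 TPM. Every mutant sample was thus above every WT sample.

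Genes of sperm formation gave the same direction, 15 higher and 1 lower of 23. *gsp-3*, a phosphatase of sperm, was at 33.4, 34.1 and 31.9 CPM in the *daf-2* samples and 9.49, 13.7 and 10.4 CPM in the WT samples (log2 fold change 1.57, SE 0.12, adjusted p = 2.57e-06). *spe-15*, a myosin needed to sort organelles into spermatids, had 60.6, 58.8 and 56.4 CPM against 18.5, 22.6 and 23.6 CPM in the WT samples (log2 fold change 1.44, SE 0.088, adjusted p = 5.30e-07), and *spe-9*, a sperm surface protein needed to fertilise, was higher at 3.10, 3.41 and 3.15 CPM against 1.09, 1.31 and 1.02 CPM in the WT samples (adjusted p = 0.000235). The argonautes *alg-3* and *alg-4*, which act in the male germline, were at 43.1, 45.6 and 38.6 CPM in the *daf-2* samples and 9.78, 14.1 and 11.4 CPM in the WT samples (log2 fold change 1.86, SE 0.12, adjusted p = 9.03e-07) and at 46.4, 53.3 and 50.3 CPM against 10.9, 12.27 and 13.3 CPM in the WT samples (log2 fold change 2.03, SE 0.092, adjusted p = 7.22e-08). *fog-1*, which starts the sperm fate, was at 19.7, 20.4 and 19.9 CPM in the *daf-2* samples and 22.2, 23.6 and 22.4 CPM in the WT samples and was not called (log2 fold change -0.18, SE 0.078, adjusted p = 0.0761).

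**Figure D3:**
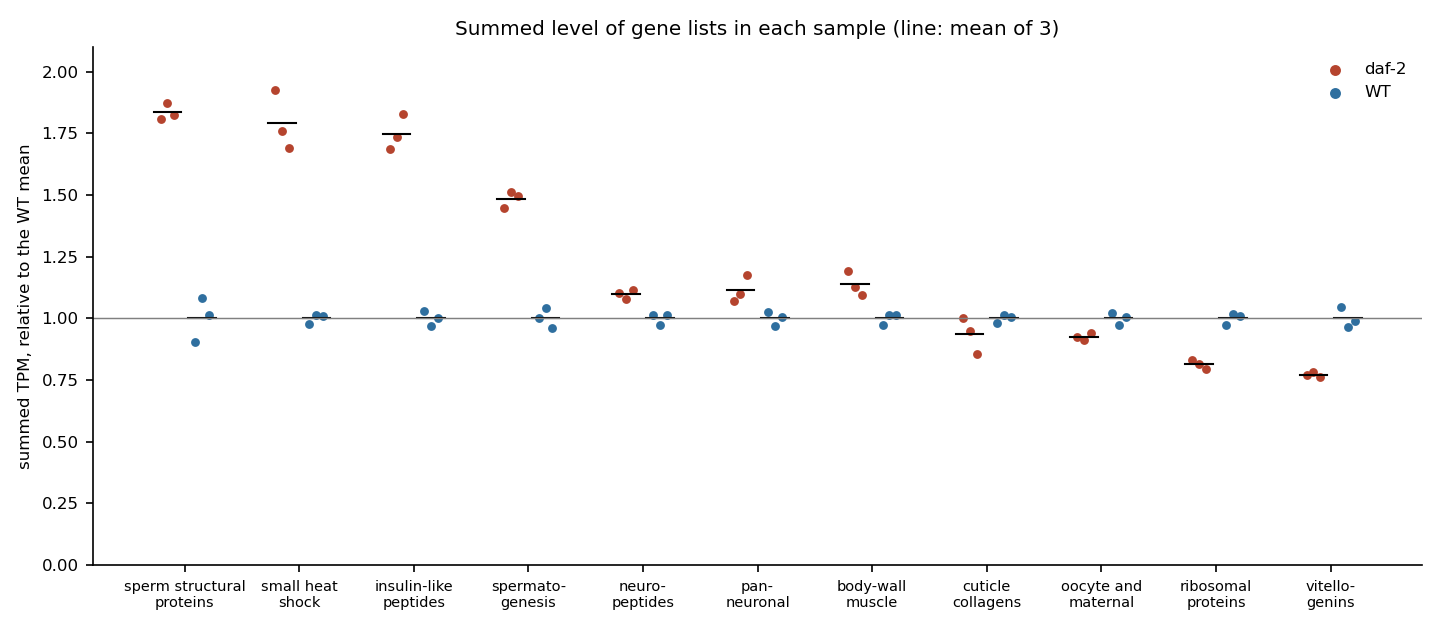
Summed TPM of 11 gene lists in each sample, divided by the mean of the WT samples, with a line at the mean of 3. Sperm proteins lie between 1.81 and 1.87 in the *daf-2* samples, ribosomal proteins between 0.796 and 0.831 and vitellogenins between 0.761 and 0.783.

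Oocyte transcripts were slightly lower. Of 30 oocyte and maternal RNA-binding genes, 21 fell and 0 rose, and with library totals 16 fell and 3 rose. *rme-2*, the yolk receptor of oocytes, was at 967, 926 and 923 CPM in the *daf-2* samples and 1303, 1305 and 1295 CPM in the WT samples (log2 fold change -0.47, SE 0.041, adjusted p = 6.16e-06). *gld-1*, a translational repressor of the germline, had 836, 801 and 800.0 CPM against 1126, 1061 and 1101 CPM in the WT samples (log2 fold change -0.43, SE 0.043, adjusted p = 1.55e-05). *oma-1*, which acts at the end of oocyte maturation, was at 442, 445 and 439 CPM in the *daf-2* samples and 465, 439 and 447 CPM in the WT samples, with overlapping groups (log2 fold change -0.027, SE 0.039, adjusted p = 0.591). Eggshell genes had 13 of 17 lower, or 7 with library totals. *perm-4* was at 1259, 1199.6 and 1222 CPM in the *daf-2* samples and 1772, 1836 and 1867 CPM in the WT samples (log2 fold change -0.57, SE 0.044, adjusted p = 2.61e-06), while *cpg-3*, a chondroitin proteoglycan gene, was higher at 815, 770.1 and 780.2 CPM against 604, 642 and 641 CPM in the WT samples (log2 fold change 0.33, SE 0.043, adjusted p = 0.000121). P granule genes and argonautes of the germline were lower for 15 of 29 and higher for 4, *alg-3* and *alg-4* among them. The median of this list was -0.13, but -0.012 with library totals, so the fall depended on the scaling. Meiosis and DNA replication genes had 5 and 5 members higher and 5 and 2 lower. With library totals 10 and 14 were higher and 2 and 1 lower. *glp-1*, the Notch receptor of germline stem cells, was at 225, 224 and 228 CPM in the *daf-2* samples and 226, 220.0 and 216 CPM in the WT samples, without a called difference (log2 fold change 0.034, SE 0.037, adjusted p = 0.481).

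All genes were also classed by their level in the *glp-4* samples. The class with under 1 TPM in both *glp-4* samples of day 1 held 7219 genes, of which 4807 did not pass the filter, and a gene of this class could pass through the group where it was higher. Its values are therefore a description. Of its 2412 tested genes, 53.9% rose and 7.96% fell, with a median log2 fold change of 0.71. Of 10653 genes at 1 TPM or more in both, 18.9% were higher and 26.2% lower, with a median of -0.049. When the first class was left out of the whole comparison, a step that was chosen after seeing the data, the test gave 2475 higher and 2374 lower genes of 11116. Of the sperm genes, 12 and 9 of the members of the 2 lists remained, of which 8 and 6 were higher. The chromosomes differed as well. On the X chromosome, which is depleted of germline genes, 18.97% of the genes were higher and 24.9% lower, against 26.6% and 22.1% on the autosomes. Without the genes under 1 TPM in *glp-4* samples, the shares were 18.9% and 25.6% on the X and 19.5% and 25.6% on the autosomes.

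Nuclear hormone receptors are transcription factors of a family that has expanded in nematodes. Among the tested members 40 fell, or 23.95%, near the 22.5% of all genes, and 16 rose, or 9.58%, against 25.5%. With library totals 25 fell and 25 rose. *nhr-8*, a receptor of xenobiotic and cholesterol responses, was at 10.1, 11.7 and 9.46 CPM in the *daf-2* samples and 22.3, 20.5 and 24.8 CPM in the WT samples (log2 fold change -1.12, SE 0.11, adjusted p = 1.59e-05), and *nhr-47* was higher at 23.5, 23.9 and 23.7 CPM against 15.3, 12.7 and 13.6 CPM in the WT samples (log2 fold change 0.77, SE 0.093, adjusted p = 6.24e-05). Among bZIP factors, 8 rose and 6 fell of 25. *zip-8* was at 8.11, 8.97 and 8.46 CPM in the *daf-2* samples and 1.66, 1.12 and 2.52 CPM in the WT samples (log2 fold change 2.22, SE 0.23, adjusted p = 2.00e-05), *zip-7* rose by 1.69 and *zip-10* was at 5.81, 7.30 and 4.05 CPM against 19.05, 16.997 and 20.6 CPM in the WT samples (log2 fold change -1.75, SE 0.17, adjusted p = 1.64e-05). *zip-5* fell by 1.78. *elt-6*, a GATA factor of the epidermis, was at 8.11, 6.19 and 7.36 CPM in the *daf-2* samples and 3.72, 4.003 and 4.43 CPM in the WT samples (log2 fold change 0.84, SE 0.16, adjusted p = 0.00125).

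Genes that share a symbol prefix gave a further view without a chosen list. In 127 families with at least 10 tested genes, the medians were compared. F-box genes of the fbxb family, putative substrate adaptors of ubiquitin ligases, had the highest median (48 higher and 1 lower of 76 tested, median log2 fold change 1.04). *fbxb-41* was at 6.36, 7.86 and 10.3 CPM in the *daf-2* samples and 2.17, 3.35 and 2.75 CPM in the WT samples (log2 fold change 1.57, SE 0.22, adjusted p = 0.000162), and the levels in the family were low, so that a gene could pass the filter through the group where it was higher. The Skp1-related skr genes, which work with F-box proteins, were also higher (12 higher and 1 lower of 19 tested, median log2 fold change 0.80), with *skr-4* at 33.2, 31.2 and 29.7 CPM against 8.01, 8.07 and 8.71 CPM in the WT samples (log2 fold change 1.92, SE 0.092, adjusted p = 8.77e-08). The pals genes, known from the response to intracellular pathogens, followed (10 higher and 1 lower of 17 tested, median log2 fold change 0.80). As in the fbxb family, a gene at a low level could pass the filter through the group where it was higher. *pals-6* was at 7.16, 7.44 and 11.4 CPM in the *daf-2* samples and 0.286, 0.787 and 0.466 CPM in the WT samples (log2 fold change 4.10, SE 0.32, adjusted p = 2.71e-06). Transthyretin-related genes formed a larger family (29 higher and 4 lower of 51 tested, median log2 fold change 0.46), and *ttr-26* was at 56.1, 59.5 and 67.1 CPM in the *daf-2* samples and 5.72, 4.99 and 5.73 CPM in the WT samples (log2 fold change 3.47, SE 0.0997, adjusted p = 1.96e-09). Acyl-CoA synthetases activate fatty acids (12 higher and 3 lower of 21 tested, median log2 fold change 0.30), and *acs-17* was at 115, 97.2 and 107 CPM against 39.3, 37.1 and 35.5 CPM in the WT samples (log2 fold change 1.51, SE 0.069, adjusted p = 7.37e-08).

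At the other end, the nspc family of small secreted proteins had the lowest median (0 higher and 15 lower of 17 tested, median log2 fold change -1.04). Acid phosphatases of the pho family were next (1 higher and 6 lower of 11 tested, median log2 fold change -0.79). *pho-1*, an intestinal acid phosphatase, was at 24.4, 22.6 and 17.7 CPM in the *daf-2* samples and 55.5, 51.2 and 49.8 CPM in the WT samples (log2 fold change -1.28, SE 0.11, adjusted p = 4.95e-06). The proton pump genes (0 higher and 19 lower of 20 tested, median log2 fold change -0.49) and the ribosomal families rps (0 higher and 31 lower of 31 tested, median log2 fold change -0.44) and rpl (0 higher and 43 lower of 46 tested, median log2 fold change -0.42) had smaller medians but a higher share of called members. Innexins, the gap junction proteins, were lower for several members (3 higher and 9 lower of 21 tested, median log2 fold change -0.28).

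**Figure D4:**
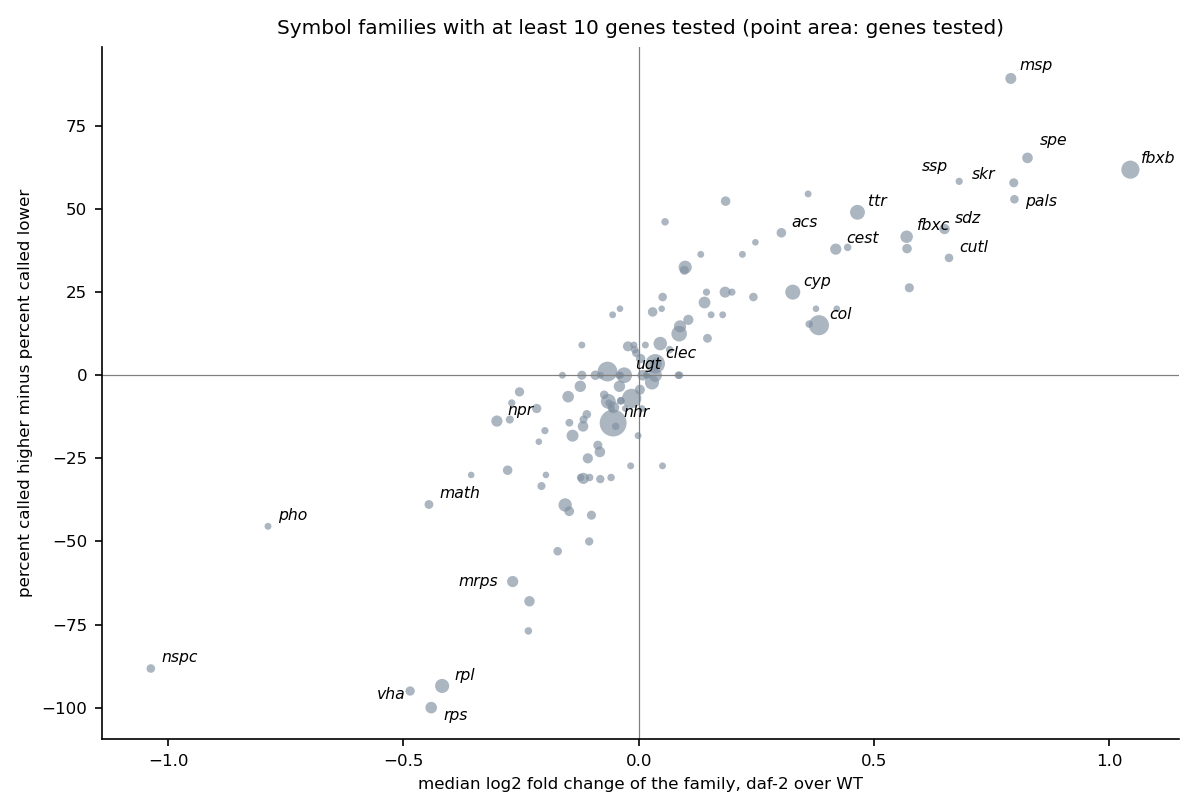
Median log2 fold change (x axis) against the percent of genes called higher minus the percent called lower (y axis) for 127 families of genes with a common symbol prefix, with point area by the number of tested genes. The msp, fbxb, skr and pals families lie at the upper right and the rps, rpl, vha and nspc families at the lower left.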

How the data were processed

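Poly(A) RNA of whole worms was sequenced from TruSeq v2 libraries as 50 bp single-end reads, a kit that does not mark strand. The authors processed the reads with Cactus 0.8.4. Their processing notes name kallisto, edgeR, DiffBind, WBcel235 and ce11. The deposited tables hold estimated counts, rounded to whole numbers and not normalized, and TPM values per gene for 12 samples. In 305 table cells a count of 0 stands beside a TPM above 0. Of 19997 genes, 19957 had a symbol and 19988 a position in Ensembl release 115, and 114 genes with over 50 counts shared all their counts with another gene. No column belonged to another series.

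The 6 samples were grouped by their labels and counts were tested with edgeR 4.0.16 (quasi-likelihood, two-sided) in R 4.3.3 after filterByExpr (minimum count 10, minimum total 15) and TMM scaling, with factors between 0.955 and 0.962 in WT and between 1.02 and 1.07 in *daf-2*. P-values were adjusted by Benjamini-Hochberg over 13528 genes, and 0.05 was the threshold. Fold changes are *daf-2* over WT. A floor of 3 counts and counting intervals cover counting error only. The procedure was tested on simulated data. Alternatives used DESeq2 1.42.0, limma 3.58.1 on log2(TPM + 1) or log2(TPM + 0.1), other scalings, filters and thresholds, a replicate block, all 12 samples and leaving out each sample. Tables and figures were made with Python 3.11.15, pandas 2.3.3 and matplotlib 3.10.9.

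The genes named were the 12 with the largest change in each direction among called genes with non-overlapping groups and at least 10 CPM in the higher group, members of 77 gene lists, *daf-2*, *daf-16*, *eri-1* and *lin-39*. Within a list, members with the lowest adjusted p in each direction and members with a textbook role were preferred. This choice was made with their values known. The neighbours of *icmt-1* and single examples of the symbol families were chosen after their values were seen. The comparison, its lists and its members were chosen with earlier results of these data known.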

Additional observations from a re-analysis of the deposited data

How the results depend on the processing

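Of 13528 genes tested, 3453 were higher and 3042 lower. The count of lower genes was the less stable. It was 1869 with library totals, 1593 with limma on log2(TPM + 1), 1605 with the same and no filter, and 1576 with log2(TPM + 0.1). With a change of at least 2-fold required, 1438 were higher and 561 lower. DESeq2 called 2931 higher and 2733 lower, of which 2842 and 2684 were also called by edgeR in that direction. Leaving out 1 sample at a time gave between 2927 and 3352 higher and between 2488 and 3035 lower. The other scalings and filters, all 12 samples in one model and an adjusted p under 0.01 stayed within 1.5 times of these counts. With the replicate number as a block, 3250 were higher and 2834 lower. Deviations of same-numbered samples correlated at 0.018, -0.0063 and -0.0090, within the range of -0.034 to 0.036 over all pairings, so the numbers only name the samples. Of 218 genes named here, 191 kept their call under every alternative that gave them a value, of 19 in all, 156 of them with a value under all 19, and none had a called direction reversed. Many of these genes were named for a large change or a low adjusted p. Their stability therefore says little about the other genes. The cause of the shifts in counts and calls was not tested, other than that fewer samples or a stricter threshold leave fewer calls. At depths of 13750913 to 22484551 counts a level under 0.133 to 0.218 CPM, 3 counts, could not be told from 0.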

Other observations

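Of 50 tested histone genes 12 were higher and 9 lower, shares close to those of all genes. Linker histones, which bind DNA between nucleosomes, did not move together. *hil-1*, a linker histone gene, was at 17.5, 18.7 and 25.4 CPM in the *daf-2* samples and 3.83, 4.46 and 4.80 CPM in the WT samples (log2 fold change 2.23, SE 0.16, adjusted p = 1.99e-06), and *his-24*, another, was at 149, 176 and 171 CPM against 36.7, 62.02 and 41.4 CPM in the WT samples (log2 fold change 1.83, SE 0.15, adjusted p = 3.70e-06). The groups did not overlap for either. *hil-4* was lower, with a log2 fold change of -0.23 that was not called with library totals. Genes of chitin synthesis and chitinases, which serve the eggshell, the pharynx and the molt, had 11 members higher and 11 lower of 33, and the sign of their median changed with library totals. The chitinase gene *cht-1* was at 137, 144 and 174 CPM in the *daf-2* samples and 30.7, 38.2 and 38.9 CPM in the WT samples (log2 fold change 2.08, SE 0.10, adjusted p = 1.15e-07). *cht-3* was lower, at 177, 190.5 and 197 CPM against 401, 389.9 and 389 CPM in the WT samples (log2 fold change -1.06, SE 0.046, adjusted p = 5.26e-08).

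Genes of somatic RNA interference, a process that the shared *eri-1* allele affects in both groups, had 5 members higher and 6 lower of 29. *sago-2*, an argonaute for secondary small RNAs, was at 4.01, 2.78 and 5.76 CPM in the *daf-2* samples and 11.4, 16.08 and 19.8 CPM in the WT samples (log2 fold change -1.89, SE 0.25, adjusted p = 0.000105). All *daf-2* samples were below all WT samples. *ergo-1*, an argonaute of the endogenous pathway, rose by 0.29. The *daf-2* samples are labelled with control RNAi and the WT samples are not, so the genotype and the RNAi bacteria cannot be told apart for these genes either. Splicing factors had 7 members higher and 5 lower of 30. Hedgehog-related and patched-related genes, which take part in the cuticle and the molt, were divided evenly, with 12 higher and 12 lower of 40.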
